A study of Rattus norvegicus with 2 samples.

Results

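The 31 genes described here serve cholesterol synthesis and transport, and were taken by symbol from a table of 21224 gene rows. All 31 symbols were found. By role they are 5 regulators, 18 enzymes of synthesis and 8 genes of transport, storage and turnover. Messenger RNA had been measured in rat cortical neurons from embryonic day 18 (E18), in 1 library from cells given a negative control small interfering RNA (siNC) and 1 library from cells given a small interfering RNA against Ythdf3 (siYthdf3), a reader of the m6A mark on messenger RNA. The sources used here do not give strain, number of cultures or time from transfection to harvest.

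Cholesterol does not pass from blood to brain in lipoproteins to any large extent, so brain cells make their own. Acetyl-CoA is built up to mevalonate, then to isoprenoids and squalene, and squalene is closed into lanosterol and trimmed to cholesterol. When sterols are scarce, SCAP carries the SREBP transcription factors out of the endoplasmic reticulum and they switch on these enzymes. When sterols are plentiful, INSIG proteins hold SCAP back, and oxysterols activate the nuclear receptor LXR, which switches on export genes. In brain, astrocytes are known as a main source of cholesterol carried by apolipoprotein E, and neurons take it up and also synthesise it, most of all during development.

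With 1 library per group there is no replicate error to set a difference against, so p-values are left out. Levels are FPKM, that is, reads scaled by gene length and library total. Each ratio is siYthdf3 over siNC on the FPKM scale, with an exact 95% Clopper-Pearson interval that covers only counting error. Log2 ratios were taken after adding 0.5 FPKM. The libraries held 15392218 assigned reads in siNC and 22586543 in siYthdf3. Ythdf3 was at 9.38 FPKM in siNC and 6.93 FPKM in the library labelled siYthdf3, a ratio of 0.739 (interval 0.675 to 0.809). The targeted messenger was thus lower in that library but far from absent. Its log2 ratio lay at percentile 7.51 of all genes averaging at least 1 FPKM, and 22.2% of those genes had an interval below 1. Pan-neuronal markers were present in both libraries, at 12.7 to 260 FPKM in siNC and 12.1 to 263 FPKM in siYthdf3, and so were markers of astrocytes, progenitors and dividing cells. In such bulk RNA, fewer cells of a type and less RNA per cell cannot be told apart.

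Promoter sequences were taken from RefSeq (GRCr8 build) for 25 of the 31 genes, in windows from 250 bases before to 50 bases after each start. Pmvk, Fdft1, Sqle, Stard4, Abcg1 and Lrp8 are not among them. The sites below show what the regulatory regions of the genes discussed most look like. Capitals mark a CCAAT box (or ATTGG, its complement), which binds NF-Y, a factor known to work beside SREBP, an E-box (CACGTG), or a GC box (GGGCGG, or its complement CCGCCC), which binds SP1-like factors. Each site is written on the strand of its gene and lies upstream of the start (for Srebf1, of the inner of its 2 listed starts).
Hmgcs1, CCAAT box, chr2:53382159-53382188, plus strand: ctgagtccggtgATTGGctgagatagctgc
Idi1, CCAAT box, chr17:66547573-66547602, minus strand: tgcctccagctgATTGGtgagcccgggcat
Srebf1, CCAAT box, chr10:45519124-45519153, minus strand: gggcggggccttATTGGggcgcggcgcggc
Insig1, E-box, chr4:8057831-8057860, minus strand: gctgggtgagatCACGTGgcaccggcgaca
Abca1, E-box, chr5:72596605-72596634, minus strand: gggccatagctcCACGTGctttctgctgag
Cyp51, GC box, chr4:30991554-30991583, plus strand: acgcagaaagccCCGCCCcgtctgtgacgt
Acat2, GC box, chr1:50100761-50100790, plus strand: gaggccatagttCCGCCCcccagcacggcc

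Searched on both strands, CCAAT stood in a window of 20 of the 25 genes, among them 12 of 15 enzymes of synthesis, 4 of 5 regulators and 4 of 5 transport genes. By window, 78.6% of the members' 28 windows held it, against 37.5% of all 33469 windows and 37.8% of the 10814 windows whose gene averaged at least 1 FPKM here. GGGCGG stood in windows of 22 genes (85.7% of windows, against 60.9% among expressed genes). CACGTG stood in windows of 4 genes, Scap, Insig1, Sc5d and Abca1 (14.3% against 9.06%). A core of the sterol regulatory element, TCACNCCAC, matched no member window, 1.12% of all windows and 1.05% of windows of expressed genes. At so low a share, its absence from 28 windows says little about the members. A perfect spaced direct repeat of the kind LXR binds also matched no member window. It matched only 4 of all 33469 windows and 0 of the 10814 windows of expressed genes, so its absence says nothing particular about the members. These are letter matches in short windows. Neither a match nor the lack of one says whether a factor binds, and binding was not measured.

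The question put to the members was whether messenger levels of the cholesterol pathway differed between the siYthdf3 and siNC libraries. They were close. Of the 31, 30 averaged at least 1 FPKM over both libraries, and none of these 30 was 2-fold apart in either direction. Among all 13172 genes at that level, 0.706% were 2-fold higher and 0.896% 2-fold lower. Only Abca1 was at least 1.5-fold higher, where 2.41% of all genes were, and 0 members were 1.5-fold lower, where 3.95% were. Abca1 sat at the edge of that rule, with a log2 ratio of 0.59, and fell short of it with a pseudocount of 1 FPKM (0.51) or with the length trend of all genes removed (0.49). Abcg1 lay under the filter. In the deposited coordinates 5 members, Srebf1, Scap, Mvd, Fdps and Hsd17b7, overlap another row, so the assignment of some of their reads is uncertain.

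The counting intervals resolve smaller differences. They lay above 1 for 11 of the 30 genes (36.7%) and below 1 for 3 (10%), where 20% of all genes had an interval above 1 and 22.2% one below. Deeply read genes give narrow intervals. Among members averaging at least 10 FPKM, 9 of 20 lay above 1 and 2 below, and among all genes of that level 26.2% lay above and 31.4% below. The median log2 ratio of the 30 genes was 0.08, and that of all genes was -0.01 with quartiles of -0.17 and 0.14. Of the 30, 19 lay between those quartiles, 8 above and 3 below.

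**Figure D1:**
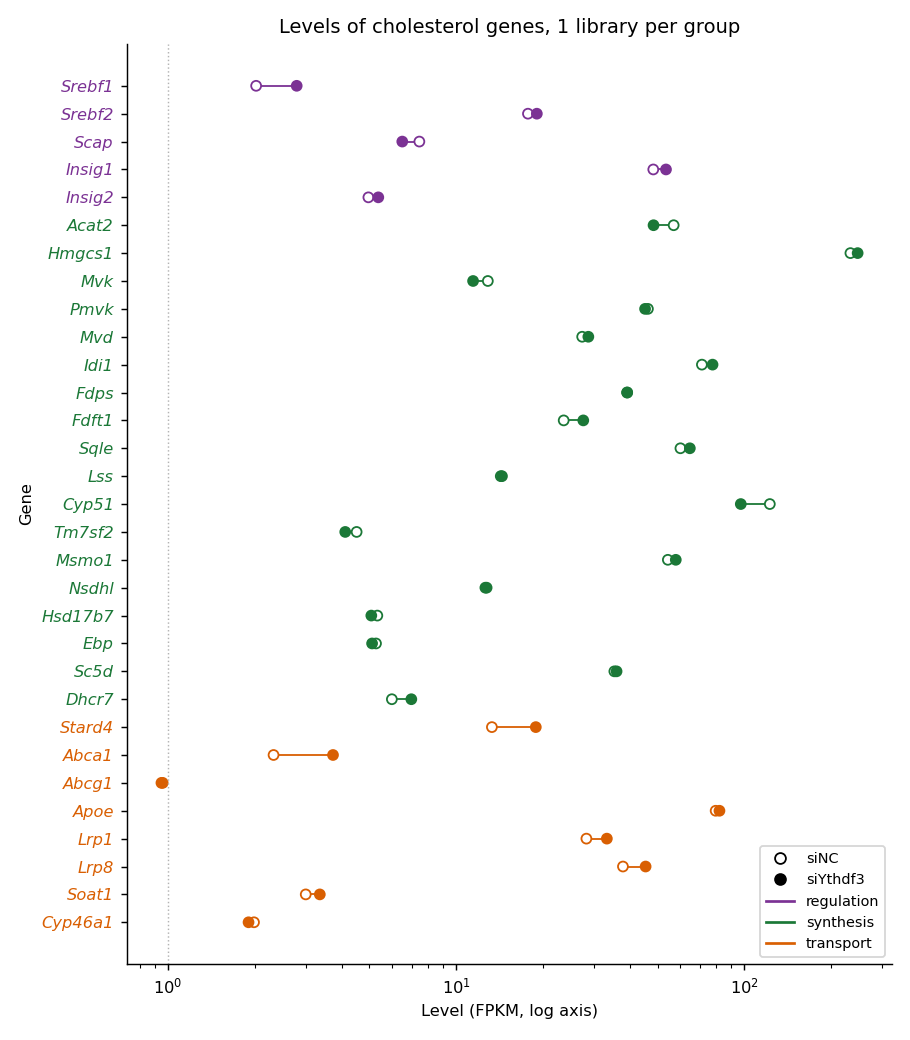
Level of each gene in FPKM (log axis) in siNC (open circles) and siYthdf3 (filled circles), 1 library each, coloured by role, with a dotted line at 1 FPKM. Levels run from under 1 FPKM for Abcg1 to 247 FPKM for Hmgcs1, and the circles of most genes lie close together.

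The roles differed in how their members lay. The median log2 ratio was 0.01 for the enzymes of synthesis, with 14 of 18 between the all-gene quartiles. Regulators had a median of 0.10 over 5 genes, and transport genes of 0.23 over 7. Summed FPKM of the enzymes was 831 in siNC and 829 in siYthdf3, a ratio of 0.998. The regulators summed to 80.5 FPKM and 87.2 FPKM, a ratio of 1.08, and the transport genes to 167 FPKM and 190 FPKM, a ratio of 1.13. Abcg1, under the filter, is in the transport sum but not in the median. Without the most abundant member of each role, the ratios were 0.974 for enzymes (Hmgcs1 left out), 1.05 for regulators (Insig1) and 1.23 for transport (Apoe). With 1 library each, these differences between roles were not tested. The order of the medians also depends on gene length. Ratios grew with gene length over the whole table, from a median of -0.08 in the shortest of 10 length bins to 0.11 in the longest, and once that trend was removed the medians were 0.11 for transport, 0.16 for regulation and 0.05 for synthesis.

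**Figure D2:**
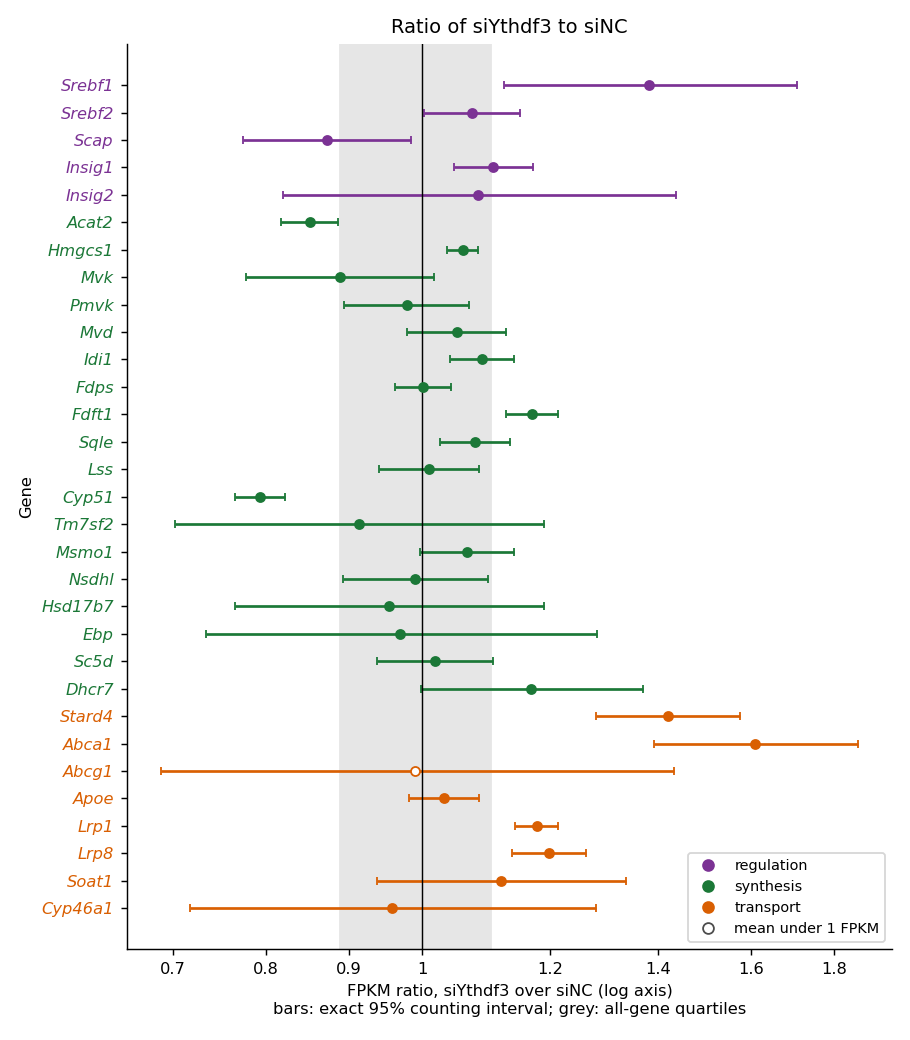
FPKM ratio of siYthdf3 over siNC for each gene (log axis), with exact 95% counting intervals as bars and the all-gene quartiles as a grey band. Abca1 at 1.61 and Stard4 at 1.42 lie farthest right and Cyp51 at 0.793 farthest left. Of the 18 enzymes of synthesis, 4 have intervals above 1, 2 below and 12 that include 1. Among all genes averaging at least 1 FPKM, 20% have an interval above 1 and 22.2% below.

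Among the regulators, the 2 SREBP genes differed in level and in ratio. Srebf2 (chromosome 7, 113663202 to 113720848, plus strand) encodes SREBP2, the main activator of cholesterol synthesis genes. It was at 17.7 FPKM in siNC and 19.0 FPKM in siYthdf3, a ratio of 1.07 (interval 1.00 to 1.15). Srebf1 (chromosome 10, 45007637 to 45029650, minus strand) encodes SREBP1, whose forms act mostly on fatty acid synthesis and one of which is itself induced by LXR. It was at 2.02 FPKM in siNC and 2.80 FPKM in siYthdf3, with 138 and 280 reads behind a ratio of 1.38 (interval 1.12 to 1.71). That put Srebf1 at percentile 94.0 of all genes by log2 ratio. Srebf2 exceeded Srebf1 8.78-fold in siNC and 6.81-fold in siYthdf3, so both libraries held far more messenger for the cholesterol factor. Srebf1 overlaps Rai1 on the other strand by 596 bases, and use of strand in counting is not stated. The ratio of Rai1 was 1.19.

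The sensors that gate SREBP had ratios from 0.872 to 1.11, not all on one side of 1. Scap, the escort of SREBP, was at 7.45 FPKM in siNC and 6.50 FPKM in siYthdf3, a ratio of 0.872 (interval 0.774 to 0.984), and it was the only regulator with an interval below 1. Insig1, the retention protein that is itself an SREBP target, was at 48.3 FPKM and 53.4 FPKM, a ratio of 1.11 (interval 1.05 to 1.17). Insig2, its paralogue, was at 4.96 FPKM and 5.37 FPKM, with an interval of 0.819 to 1.44 that includes 1 on 85 and 135 reads. Insig1 thus exceeded Insig2 by 9.74-fold in siNC and 9.96-fold in siYthdf3.

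Synthesis begins with the steps that turn acetyl-CoA into activated isoprene units. Acat2 (chromosome 1, 47695788 to 47752821, plus strand), the cytosolic thiolase that joins acetyl-CoA units, was at 56.8 FPKM in siNC and 48.4 FPKM in siYthdf3, a ratio of 0.851 (interval 0.818 to 0.887). Hmgcs1, the cytosolic HMG-CoA synthase, had the highest level of the members, 233 FPKM in siNC and 247 FPKM in siYthdf3, and a ratio of 1.06 (interval 1.04 to 1.08). It made up 28.1% of the summed FPKM of the enzymes in siNC and 29.8% in siYthdf3. So the first enzyme was lower and the next slightly higher in the siYthdf3 library, both by less than 1.5-fold. Mevalonate kinase, Mvk, was at 12.9 FPKM and 11.4 FPKM, phosphomevalonate kinase, Pmvk, at 46.3 FPKM and 45.2 FPKM, and mevalonate diphosphate decarboxylase, Mvd, at 27.4 FPKM and 28.7 FPKM. All 3 of these intervals include 1. Idi1, the isomerase that balances the isoprene units, was at 71.2 FPKM and 77.5 FPKM, a ratio of 1.09 (interval 1.04 to 1.14).

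Condensation to squalene and its closure followed the same narrow pattern. Fdps, farnesyl diphosphate synthase, was at 39.2 FPKM in both libraries, a ratio of 1.00 (interval 0.961 to 1.04). Fdft1, squalene synthase, which commits farnesyl units to sterols, was at 23.6 FPKM in siNC and 27.6 FPKM in siYthdf3, a ratio of 1.17 (interval 1.13 to 1.21). Its log2 ratio of 0.22 was the highest of the 18 enzymes, but its listed length of 12374 bases is among the longest, and the value was 0.06 with the length trend removed. Sqle, squalene epoxidase, a rate-limiting oxygenase, was at 60.0 FPKM and 64.7 FPKM, a ratio of 1.08 (interval 1.03 to 1.13). Lss, which closes the ring to lanosterol, was at 14.3 FPKM and 14.4 FPKM, with an interval of 0.940 to 1.08.

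The step after lanosterol had the lowest ratio of the members. Cyp51 (ENSRNOG00000007234, chromosome 4, 30036865 to 30055410, plus strand), the lanosterol demethylase, was at 123 FPKM in siNC and 97.2 FPKM in siYthdf3. The ratio was 0.793 (interval 0.766 to 0.821) on 5867 and 6827 reads and lay at percentile 10.8 of all genes. Cyp51 made up 14.7% of the summed FPKM of the enzymes in siNC and 11.7% in siYthdf3. A further row with the same symbol, on chromosome 6, held 4 reads in siNC and 1 in siYthdf3 and was not used.

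The enzymes that go on to trim lanosterol had point ratios nearer 1 than Cyp51, though the intervals of the less abundant ones reach its value. Msmo1, the sterol methyl oxidase that acts on the methyl groups left after Cyp51, was at 54.2 FPKM and 57.8 FPKM, a ratio of 1.07 (interval 0.997 to 1.14). Nsdhl and Hsd17b7, which complete the removal of those groups, were at 12.7 FPKM and 12.6 FPKM, and at 5.32 FPKM and 5.07 FPKM. Hsd17b7 lies wholly within a row on the other strand, so its reads are uncertain. Tm7sf2, a sterol reductase, was at 4.51 FPKM and 4.12 FPKM, Ebp, a sterol isomerase, at 5.27 FPKM and 5.11 FPKM, and Sc5d, a sterol desaturase, at 35.4 FPKM and 36.0 FPKM. Intervals of these 6 genes include 1, and those of Tm7sf2 and Ebp, on 103 and 90 reads in siNC, span 0.702 to 1.19 and 0.734 to 1.28. Dhcr7, which makes the last double bond reduction of one branch, was at 5.98 FPKM and 6.99 FPKM, a ratio of 1.17 (interval 0.998 to 1.37).

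Transport genes held the largest differences of the 31. Abca1 (chromosome 5, 67681297 to 67801170, minus strand), the exporter that loads cholesterol onto apolipoproteins and a well known LXR target, was at 2.32 FPKM in siNC and 3.74 FPKM in siYthdf3. With 267 and 630 reads, its ratio was 1.61 (interval 1.39 to 1.86), at percentile 97.6 of all genes. Abcg1 (chromosome 20, 9126687 to 9182948, plus strand), a partner exporter and also a known LXR target, was at 0.958 FPKM and 0.949 FPKM, a ratio of 0.990 (interval 0.689 to 1.43). The 2 exporters had unlike ratios, but the interval of Abcg1, on only 53 and 77 reads, reaches into that of Abca1. Apoe (chromosome 1, 79353916 to 79357932, minus strand), the main lipoprotein of brain, was at 79.5 FPKM and 81.9 FPKM, a ratio of 1.03 (interval 0.981 to 1.08). Apoe was the most abundant of the 8 transport genes in both libraries.

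Stard4 (chromosome 18, 24817107 to 24830024, minus strand), a soluble carrier that moves sterol between membranes and a known SREBP target, was at 13.3 FPKM in siNC and 18.9 FPKM in siYthdf3. Its ratio was 1.42 (interval 1.28 to 1.58), at percentile 96.3 of all genes, and it differed in size from other genes known as SREBP targets such as Hmgcs1 at 1.06, Sqle at 1.08 and Insig1 at 1.11. With the length trend removed, the log2 ratio of Stard4 was 0.51 and that of Abca1 0.49. Both remained the highest of the 30.

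The lipoprotein receptors were higher by less. Lrp8, the apolipoprotein E receptor that also receives reelin, was at 37.9 FPKM in siNC and 45.4 FPKM in siYthdf3, a ratio of 1.20 (interval 1.14 to 1.26). Lrp1, a large endocytic receptor for apolipoprotein E, was at 28.3 FPKM and 33.3 FPKM, a ratio of 1.18 (interval 1.14 to 1.21). Lrp1 is the longest of the members at 14765 bases. Its log2 ratio of 0.23 was 0.05 with the length trend removed, while that of Lrp8 went from 0.26 to 0.24. Soat1, which esterifies cholesterol for storage, was at 3.005 FPKM and 3.36 FPKM, with an interval of 0.938 to 1.34. Cyp46a1, the neuronal hydroxylase through which brain disposes of cholesterol, was at 1.99 FPKM and 1.90 FPKM, with an interval of 0.718 to 1.28.

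**Figure D3:**
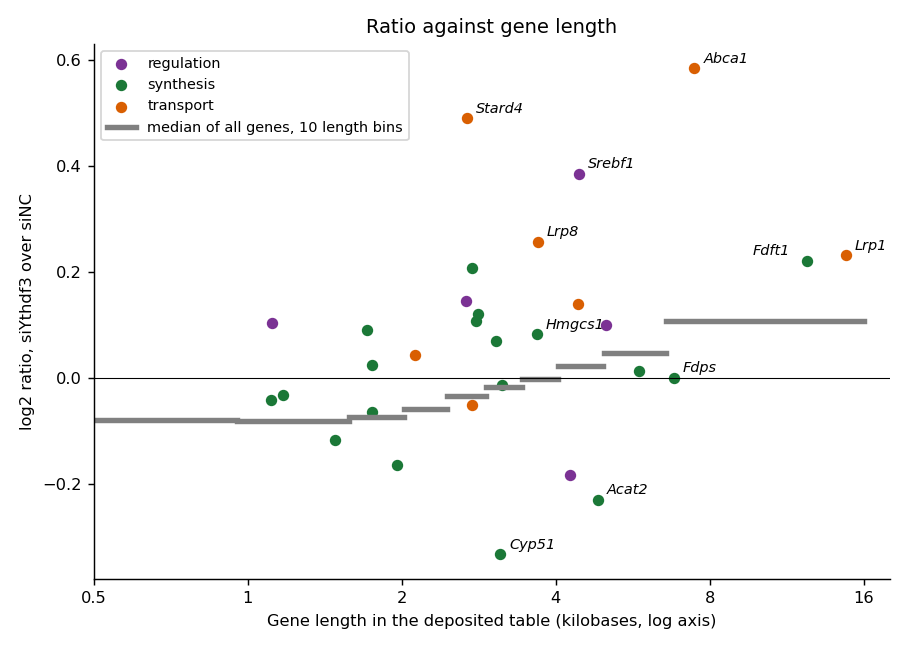
Log2 ratio of siYthdf3 over siNC against gene length in kilobases (log axis) for the 30 genes averaging at least 1 FPKM, coloured by role, with all-gene medians in 10 length bins as grey bars (outer bins clipped to the axis). Lrp1 and Fdft1 are the longest genes shown, while Abca1, Stard4 and Srebf1 lie well above the median of their length bin.

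Further genes of the same processes, from 5 other lists, had medians close to that of all genes. Their counts of intervals are to be read against the 20% of all genes above 1 and 22.2% below. Among 11 other mevalonate and sterol enzymes the median log2 ratio was 0.00, and 1 interval lay above 1 and 1 below. Cyb5r3, a cytochrome b5 reductase, was highest at 0.20, and Lbr, a sterol reductase of the inner nuclear membrane that also acts after lanosterol, lowest at -0.23, a ratio of 0.846 (interval 0.760 to 0.942). Dhdds, of dolichol synthesis, was at -0.19.

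For SREBP processing, sterol-regulated degradation and LXR, the 14 measured genes had 2 intervals above 1, 3 below and a median of -0.04. Mylip, a ubiquitin ligase that degrades lipoprotein receptors and a known LXR target, was highest, at 1.88 FPKM and 2.81 FPKM. On 89 and 195 reads its ratio was 1.49 (interval 1.16 to 1.94). Rxra, the dimer partner of LXR, was at -0.23 with an interval that includes 1. The LXR genes themselves, named after their values were known, were not higher: Nr1h2 was at 12.2 FPKM and 10.5 FPKM, a ratio of 0.861 (interval 0.751 to 0.987), and Nr1h3 at 0.710 FPKM and 0.433 FPKM on 19 and 17 reads.

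Of 14 genes for uptake and intracellular transport, 5 had intervals above 1 and 4 below, and the median was 0.01. Lipa, the lysosomal lipase that frees cholesterol from its esters, was at 5.14 FPKM and 8.21 FPKM, a ratio of 1.60 (interval 1.37 to 1.86). Npc2, which hands that cholesterol on within the lysosome, was at 30.1 FPKM and 23.7 FPKM, a ratio of 0.788 (interval 0.712 to 0.873). Its partner Npc1, named after its value was known, stood at 0.848 (interval 0.771 to 0.934). The receptor Scarb1 was at -0.40 on the log2 scale. Among Lipa, Npc2 and Npc1, the lipase was higher and both carriers lower in the siYthdf3 library. These genes were picked by size of difference or with the value known, so they do not describe the lysosomal route as a whole.

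Of 14 efflux, lipoprotein and oxysterol genes, 8 passed the filter, with a median of -0.03 and 2 intervals above 1 against 1 below. Clu, a brain apolipoprotein that astrocytes secrete, was at 14.3 FPKM and 22.4 FPKM, a ratio of 1.56 (interval 1.40 to 1.74). Lcat, which esterifies cholesterol on lipoproteins, was at 4.12 FPKM and 2.72 FPKM, a ratio of 0.662 (interval 0.497 to 0.880). Cyp7b1, an oxysterol hydroxylase, was at 0.25 on the log2 scale. For fatty acid synthesis, on which SREBP1 acts, the 13 genes centred on 0.01, with 4 intervals above 1 and 2 below. The desaturase paralogues lay on different sides of 1, with Scd at 10.7 FPKM and 13.3 FPKM (ratio 1.24, interval 1.14 to 1.36) and Scd2 at 174 FPKM and 149 FPKM (ratio 0.855, interval 0.836 to 0.875). Lpin1 was at 0.20. Scd and Scd2 are close paralogues, and how reads were split between them is not given.

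**Figure D4:**
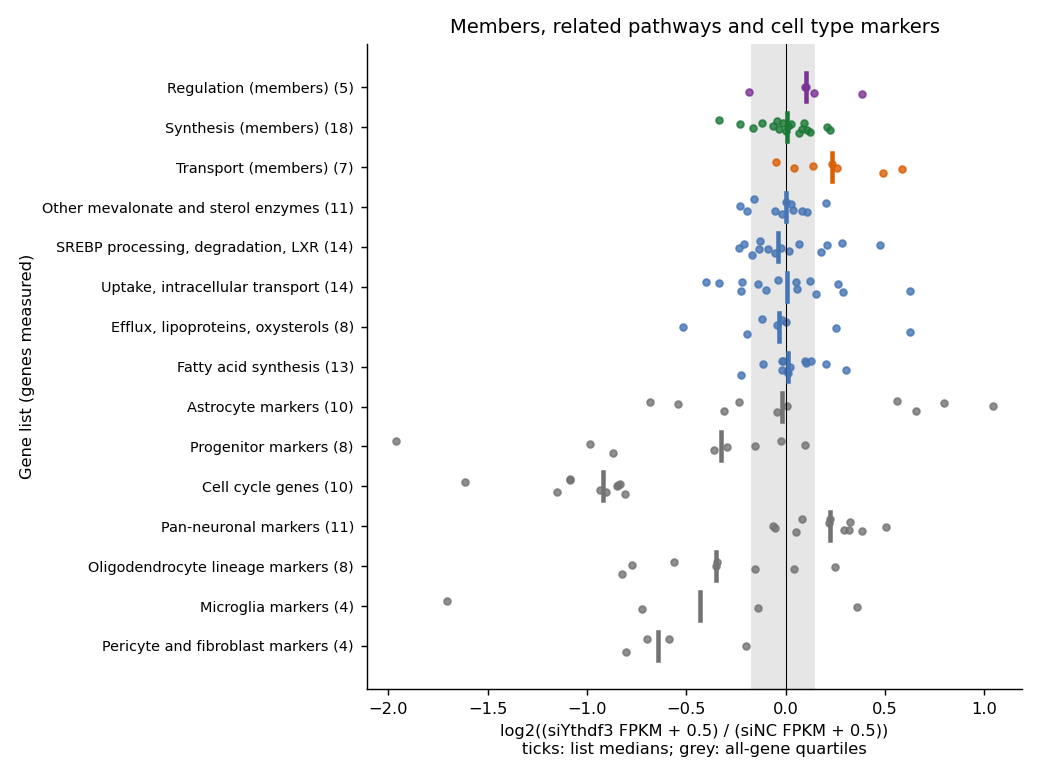
Log2 ratio of siYthdf3 over siNC for every gene averaging at least 1 FPKM in the 3 role groups, 5 related lists (blue) and 7 marker lists (grey), with list medians as vertical ticks and all-gene quartiles as a grey band; vertical scatter within a list has no meaning. Enzymes of synthesis and the 5 related lists have medians near 0 and transport genes one of 0.23, while cell cycle genes lie to the left, all between -1.62 and -0.81.

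Several marker lists lay farther from 0 than the role groups did. For all marker lists, interval counts are to be read against the 20% of all genes above 1 and 22.2% below. Among genes averaging at least 10 FPKM, those shares are 26.2% and 31.4%. The median log2 ratio of cell cycle genes was -0.92 (10 of 10 intervals below 1), and summed to 325 FPKM in siNC and 157 FPKM in siYthdf3. Progenitor markers had a median of -0.33 (6 of 8 intervals below 1) and summed to 2039 FPKM and 1378 FPKM. Most of both sums came from Vim, at 708 FPKM and 357 FPKM, and Fabp7, at 1105 FPKM and 862 FPKM. Fabp7 was named after its value was known. Pan-neuronal markers had a median of 0.22 (8 of 11 intervals above 1) and summed to 1114 FPKM and 1278 FPKM. These values stand beside the higher ratios of Lrp8 and Lrp1, both expressed by neurons, and their part in those ratios was not tested.

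Astrocyte markers lay on both sides of 0. Their 10 genes had a median of -0.02, with 4 intervals above 1 and 3 below, and summed to 193 FPKM in siNC and 264 FPKM in siYthdf3. Gfap alone, the intermediate filament of astrocytes, went from 68.2 FPKM to 141 FPKM, about the difference of the whole sum. Slc1a2, the glutamate transporter, had a ratio of 1.87 and Gja1, the gap junction gene, of 0.606. Apoe, which astrocytes express strongly, had a ratio of 1.03, and Abca1 and Clu had ratios of 1.61 and 1.56. Whether astrocyte content bears on Abca1 and Clu was not tested. Oligodendrocyte lineage markers had a median of -0.35 over 8 genes and summed to 77.3 FPKM and 67.7 FPKM. Microglia and macrophage markers, of interest because such cells express Apoe, Abca1 and Lipa, had a median of -0.43 over 4 of 8 genes. They summed to 10.1 FPKM and 5.89 FPKM. Of those 4 genes, 3 had log2 ratios below 0. Tyrobp, on 27 and 8 reads, had a ratio of 0.202 (interval 0.0793 to 0.457). Aif1 had a ratio of 0.523 (interval 0.362 to 0.751) and Cd68 of 0.890 (interval 0.604 to 1.32). P2ry12 was above, on 41 and 87 reads, at a ratio of 1.45 (interval 0.987 to 2.15). Cx3cr1, under the filter, had 2 reads in siNC and 0 in siYthdf3. Pericyte and fibroblast markers had a median of -0.64 over 4 of 6 genes and summed to 10.2 FPKM and 6.32 FPKM. Lum, under the filter, had 0 reads in siNC and 6 in siYthdf3. Endothelial markers were all under 1 FPKM in both libraries.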

How the data were processed

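The members and gene lists were chosen with earlier results of these data known. The authors deposited FPKM values per gene and library, with Ensembl identifiers, symbols, coordinates and gene lengths in bases, per the file headers. Tools in the submitters' processing notes, whose roles are not stated, are STAR 2.7.6a, StringTie 2.1.4, featureCounts with Subread 1.5.1, fastp 0.23.2 and edgeR 3.40.2. Per the labels' protocols, the library kit tags each cDNA molecule with 12 random bases. The sources used here do not give collapse by that tag, strand setting, genome build or annotation, so coordinates are those of the deposited table. Other gene lengths would change levels but not FPKM ratios from the same reads. Through the added 0.5 FPKM they would also change log2 ratios, most of all for low genes, and which genes pass the filter.

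FPKM times length was a whole number of reads for 100% of values in each library, within 0.05 of a read, which gave the reads behind each interval. No count test was run, since each group has 1 library. Intervals and floors cover counting error only. A row at 0 allows up to 3 reads, which for 1 kilobase is 0.195 FPKM (siNC) or 0.133 FPKM (siYthdf3). Genes entered at a mean of at least 1 FPKM, and the rule of size was 2-fold on log2(FPKM + 0.5), which understates differences of low genes. A symbol on more than 1 row was read from the row with the highest mean. The length trend was a lowess fit (span 0.3) of log2 ratio on log10 length over all genes that entered. Named genes are the 31 members, Ythdf3, and from each list the 3 largest differences plus any past 2-fold; the marker lists are given by their sums with some of these genes. Listed genes without a matching symbol, such as Scp2, Mlxipl, Itgam and Dcn, are not analysed here, and some genes that the rule takes are left out of the text. The interval calculation was tested on simulated data. Python 3.11.15 was used with scipy 1.17.1, numpy 2.4.6, statsmodels 0.14.6, pandas 2.3.3 and matplotlib 3.10.9.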

Additional observations from a re-analysis of the deposited data

How the results depend on the processing

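No paired analysis was possible because each group has 1 library. No member was 2-fold apart under pseudocounts of 0.1 or 1 FPKM, other filters, rescaling to TPM, median centring, rescaling without mitochondrially encoded and top 20 genes, removal of the length trend, or summing rows of a symbol. Under a 1.5-fold rule 1 member was higher and 0 lower. Over these alternatives the median log2 ratio ranged from 0.11 to 0.28 for transport genes, from 0.10 to 0.16 for regulators and from 0.01 to 0.06 for enzymes. Rescaling to TPM shifts the scale by 0.05 on the log2 axis. Because the pseudocount then weighs less, low genes with positive log2 ratios move by more, with Abca1 at 0.69. Low genes with negative ones move by less, with Tm7sf2 going from -0.12 to -0.08. Across 6 changes of scale, pseudocount or length, 25 of 30 members kept the sign of their log2 ratio, and Pmvk, Fdps, Lss, Nsdhl and Ebp, all close to 0, did not. Intervals above 1 numbered 10 to 13, and those below 1 numbered 2 to 4, over a 99% level, the rescalings and the removal of the length trend, the last chosen after seeing the data. Among protein-coding genes only, 0.225% were 2-fold higher. Depth limits Insig2, Tm7sf2, Ebp, Abcg1 and Cyp46a1, each with at most 103 reads in siNC.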
